A study of Danio rerio with 12 samples.

Results

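The genes described here are 10 zebrafish genes of skeletal muscle formation, chosen by symbol: the basic helix-loop-helix (bHLH) factors *myod1*, *myf5*, *myog* and *myf6*, their partners *mef2ca* and *mef2d*, the progenitor factors *pax3a* and *pax7a*, the fusion gene *mymk*, and *chrng*, a subunit of the muscle acetylcholine receptor. Of the 32520 genes in the count files, 7 of these members matched 1 identifier each in the name table. The other 3, *mef2ca*, *pax3a* and *pax7a*, carry a symbol there that a pair of paralogs shares, so that 6 identifiers are given for them under the shared name and none is called the a or the b copy. All 13 identifiers passed the filter on low counts, and counts of members below are over the 7 matched ones.

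RNA was measured in whole wild-type embryos of the AB line at 1 dpf, with 3 pools of 20 embryos in each of 4 treatments. Control embryos (C) spent 24 h in fresh medium at a constant 27°C. The thermal stress treatment (TS) used fresh medium with temperatures stepping from 27 to 29, 32, 29 and back to 27°C, each step held for 15 min, over 19 cycles. Stress metabolite embryos (SM) were kept at 27°C in medium taken from other embryos heated on the previous day, and TS + SM joined the heat cycles with that medium. The design thus asks what heat does, what the metabolites do and whether each changes the effect of the other. Each embryo had its own tube of 200 µL in constant darkness, which the study's methods describe as slowing development, and was pooled with others only at the end. The paper reports that heat-stressed embryos were further developed than controls of the same age. Its authors state that they do not yet know whether thermal stress acted through stress or through faster development. The labels give no stage for the pools, so heated and unheated embryos were compared at the same age and not matched by stage. They also do not say whether the 3 pools of a treatment came from separate spawnings, so the tests measure the spread between pools.

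Skeletal muscle of the zebrafish trunk forms from the somites, which bud from the presomitic mesoderm at the tail end of the embryo. Cells there take on muscle fate under *myod1* and *myf5*, which act early and in part redundantly, and then switch on *myog*, which drives terminal differentiation together with factors of the MEF2 family. Differentiating cells fuse through the membrane protein Myomaker, build the contractile apparatus and place acetylcholine receptors on their surface. At 1 dpf the anterior somites hold contracting fibers while the youngest ones have only just formed.

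The libraries held 18764434 to 60239167 counts on genes (median 24659757.5), and the deepest was 1 of TS + SM. Counts of pools of the same treatment differed beyond sampling noise, their chi-square divided by its degrees of freedom lying between 4.82 and 169. The lowest value was that of TS pools 1 and 2, whereas TS pool 3 gave 139 and 123 against them. TS + SM pools 1 and 3 gave the highest. Markers of muscle, nerve, epidermis, blood and heart were all present in every treatment. Levels below are normalized counts, that is counts scaled to a library of average size. A count of 3, taken as the limit of detection, came to 1.79 to 4.66 normalized counts depending on the library. LFC is a log2 fold change from edgeR, given with its standard error (SE). *P*-adj is the edgeR quasi-likelihood *P* value adjusted by Benjamini-Hochberg over 18688 genes, and a gene is said to be called at a *P*-adj of 0.05 or less. Transcript lengths were not at hand, so levels are compared between treatments and not between genes.

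*myog* and, less firmly, *chrng* were lower in embryos kept under repeated heat. With the heat effect averaged over both media, 2 of the 7 members were called, both lower in heated embryos, against 0.851% of all genes tested (0.15% called lower). *myog* was at 48.2% of its unheated level and *chrng* at 73.3%. *mymk* and *mef2d* had lower means in both heated treatments without being called by edgeR, and *myod1*, the factor upstream of *myog*, differed little. Of the 7 LFCs 6 were below 0, against 50.5% of all genes, and 5 of the 7 had an unadjusted *P* under 0.05, against 9.36%. The median LFC of the 7 members was −0.59, and that of all genes tested was −0.00. These shares and this median leave out the 6 identifiers with a shared symbol. Their LFCs for heat were −0.15 and −0.25 (MEF2C), 0.14 and 0.45 (PAX3), and 0.03 and 0.25 (PAX7). None of these was called or had an unadjusted *P* under 0.05. The members were chosen with earlier results of these data known, so these shares describe them and test nothing. In whole embryos, fewer cells of a type and less RNA per cell cannot be told apart. The part of developmental stage in the differences between heated and unheated embryos, here and below, was not tested.

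Myogenin, the product of *myog* (ENSDARG00000009438), drives the exit of myoblasts into differentiation. Its normalized counts were 1521, 1097 and 1107 in the 3 C pools and 1293, 980 and 751 in the SM pools. They were 621, 654 and 694 in TS and 438, 468 and 421 in TS + SM. All 6 heated pools thus lay below all 6 unheated ones, which was so for 0.557% of all genes. The TS + SM pools lay below the TS pools as well, as for 2.69%. Group means were 1242 ± 242 in C, 1008 ± 272 in SM, against 656 ± 36.8 in TS and 442 ± 24.2 in TS + SM (SD, n = 3 each). The unheated pools were spread over a wider range than the heated ones, with a coefficient of variation of 19.5% in C and 27.0% in SM against 5.60% in TS and 5.47% in TS + SM.

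The LFC of *myog* for heat averaged over media was −1.05 (SE 0.14, 95% interval −1.36 to −0.75, *P*-adj = 0.00474). In fresh medium alone the LFC of *myog* was −0.92 (SE 0.19, *P*-adj = 0.182) in TS vs. C, and in SM medium it was −1.19 (SE 0.20, *P*-adj = 0.0551) in TS + SM vs. SM. Neither single comparison was called by edgeR, although *myog* ranked 51 of 18688 genes by *P* in TS vs. C. DESeq2 called both, with a *P*-adj of 0.00950 in TS vs. C and 6.22e-05 in TS + SM vs. SM. The paper, which also used DESeq2, reports evidence that *myog* was significantly lower under thermal stress. With a block for the replicate number, *myog* was called in TS + SM vs. SM (edgeR *P*-adj = 0.0416). Same-numbered libraries of SM and TS + SM were not taken as paired, however, with correlations of 0.0239 to 0.498 between their deviations from the treatment means. The LFC of TS + SM against C was −1.49 (SE 0.20, *P*-adj = 0.0124), the lowest of the 3 comparisons. The heat effect on *myog* was not shown to differ between media, with an interaction of −0.27 whose 95% interval ran from −0.87 to 0.33.

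One limit of the counting bears on *myog* alone among the 13 identifiers. The column that ignores strand held 17.1% of its stranded counts, whereas the other 12 identifiers had 100% to 107%. The stranded column, used throughout, put only 0.419% of the reads of *myog* on the opposite strand. In the unstranded column the averaged LFC of *myog* was −1.03, no longer called (*P*-adj = 0.145), and TS + SM vs. C lost its call as well. The reason for the difference between the columns was not tested.

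**Figure D1:**
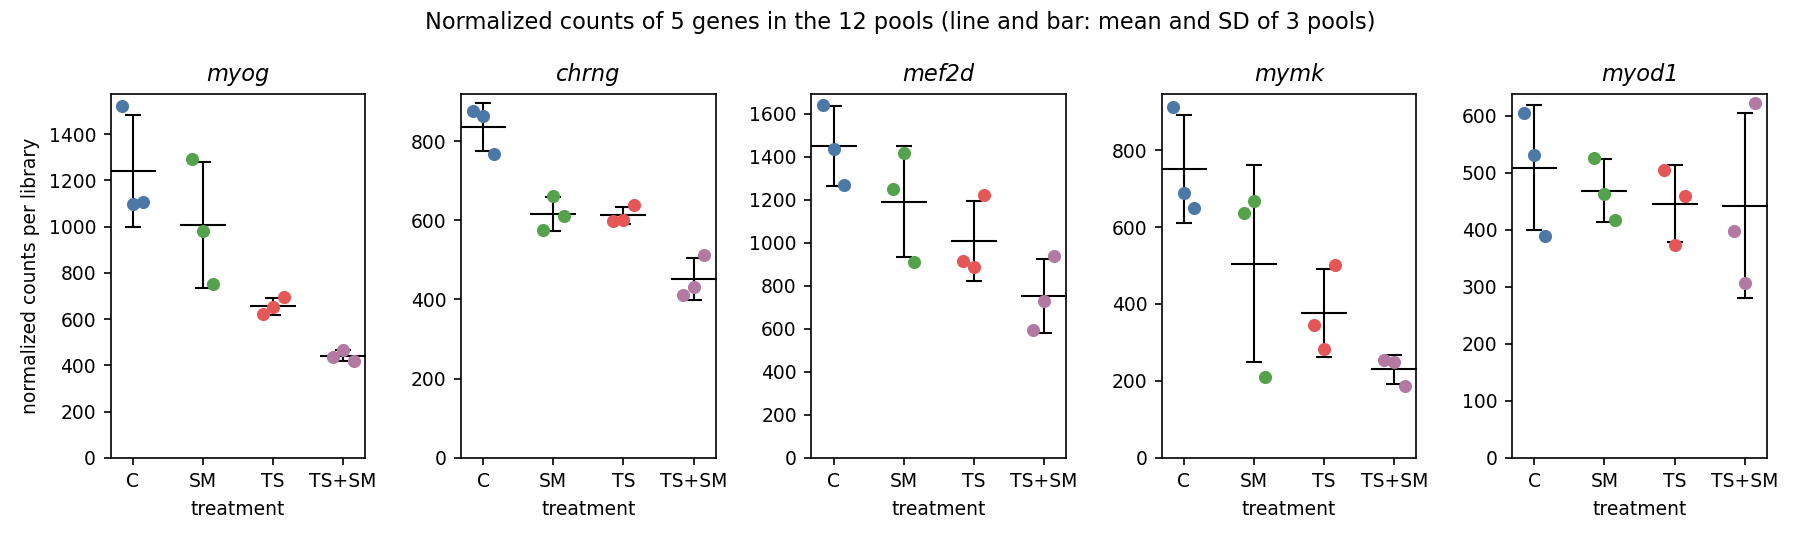
Normalized counts per library (vertical axes, starting at 0) of *myog*, *chrng*, *mef2d*, *mymk* and *myod1* in the 4 treatments (horizontal axes). Each point is 1 pool of 20 embryos, and the line and bar are the mean and SD of 3 pools. All 6 heated pools of *myog* lie below all 6 unheated ones, whereas those of *myod1* overlap in every treatment.

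The gamma subunit of the acetylcholine receptor, encoded by *chrng* (ENSDARG00000086647), belongs in mammals to the embryonic form of the muscle receptor. Its pools held 877, 863 and 767 normalized counts in C, then 576, 662 and 611 in SM, then under heat 599, 600 and 638 in TS and 412, 431 and 513 in TS + SM. The 3 C pools were the highest and the 3 TS + SM pools the lowest, with SM and TS overlapping between them. Means were 836 ± 59.6, 616 ± 43.2, 612 ± 22.1 and 452 ± 53.5 in that order (SD, n = 3 each). *chrng* thus had about the same level whether embryos met heat or metabolites, and was lower again where both were applied.

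For heat averaged over media, the LFC of *chrng* was −0.45 (SE 0.09, *P*-adj = 0.0455), a called difference close to the threshold. The call was lost with a block for the replicate number (edgeR *P*-adj = 0.0513) and in 11 of 12 fits that left out 1 library. TS + SM vs. C gave −0.89 (SE 0.13, *P*-adj = 0.0205), the other called comparison of *chrng*. In TS vs. C the LFC was −0.45 (*P*-adj = 0.490) and in TS + SM vs. SM it was −0.45 (*P*-adj = 0.399). Neither was called, although all heated pools were the lower ones in both, as for 5.47% and 4.64% of genes in that order.

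With metabolites *chrng* also had lower levels, which were not called. The LFC for SM averaged over temperatures was −0.44 (SE 0.09, unadjusted *P* = 0.000435, *P*-adj = 0.802), and *chrng* ranked 1 of 18688 genes by *P* in that comparison. Its LFC was −0.44 in SM vs. C (*P*-adj = 0.989) and −0.44 in TS + SM vs. TS (*P*-adj = 0.996). All 3 SM pools were below all 3 C pools, as for 3.04% of genes, and all 3 TS + SM pools below all 3 TS pools, as for 2.69%. edgeR called 0 genes of the whole table in SM vs. C, where 396 had an unadjusted *P* under 0.05 and DESeq2 called 1. The interaction of heat and SM on *chrng* was 0.00 and not called, and lay between −0.083 and 0.086 with single libraries left out. No interval is given for it, because the SE came from the LFC and its test statistic, which is unreliable this close to 0.

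The transcription factor *mef2d* (ENSDARG00000040237) of the MEF2 family acts with the bHLH factors on muscle genes. It had 1642, 1434 and 1270 normalized counts in C and 1249, 1416 and 910 in SM. The heated pools held 917, 890 and 1225 in TS and 596, 728 and 938 in TS + SM. Every TS pool was below every C pool, as for 5.47% of genes, and so was every TS + SM pool, as for 5.67%. SM and the heated treatments overlapped. The averaged heat LFC was −0.59 (SE 0.15, *P*-adj = 0.116), which edgeR did not call and DESeq2 did (*P*-adj = 0.0212). In TS + SM vs. C the LFC of *mef2d* was −0.94 (SE 0.22, *P*-adj = 0.168), which DESeq2 called (*P*-adj = 0.0111).

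Myomaker, encoded by *mymk* (ENSDARG00000103988), is the membrane protein that myoblasts need in order to fuse into multinucleate fast fibers. Its normalized counts were 911, 689 and 650 in C, 636, 669 and 210 in SM, beside 346, 282 and 502 in TS and 255, 249 and 187 in TS + SM. SM pool 3 stood apart from the other 2 SM pools and lay within the range of TS + SM. The averaged heat LFC of −1.06 (SE 0.26, *P*-adj = 0.0977) was as large as that of *myog* and was called by DESeq2 (*P*-adj = 0.00561) but not by edgeR. Without SM pool 3 it was −1.25 and called (edgeR *P*-adj = 0.0116). For TS + SM vs. C the LFC of *mymk* was −1.70 (SE 0.37, *P*-adj = 0.147), at 30.7% of the control level, and DESeq2 called it (*P*-adj = 0.00173). The SD within SM was 256 on a mean of 505 normalized counts.

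The small protein Myomixer, which completes fusion together with Myomaker, is encoded by *mymx*, and its levels ran from 65.3 to 81.1 normalized counts in C and from 34.2 to 69.8 in SM. Under heat they ran from 22.7 to 69.4 in TS, overlapping C, and from 12.9 to 24.2 in TS + SM. The averaged heat LFC of *mymx* was −1.20 (SE 0.31, *P*-adj = 0.116). DESeq2 called *mymx* for heat and edgeR did not. Of 5 fusion adhesion genes, 0 were called for heat by edgeR or DESeq2 and 1 had an unadjusted *P* under 0.05 (9.36% of all genes). The smallest *P* among them was that of *jam2a*, a junctional adhesion molecule of fast muscle precursors, with an LFC of −0.68 (SE 0.20, *P*-adj = 0.186).

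In contrast to *myog*, *myod1* (ENSDARG00000030110) kept overlapping ranges in every treatment. It had 605, 532 and 390 normalized counts in C, 526, 462 and 417 in SM, against 505, 372 and 459 in TS and 398, 306 and 622 in TS + SM. The highest pool of the 12 was thus a TS + SM pool and the lowest as well. Heat averaged over media gave an LFC of −0.14 (SE 0.18, 95% interval −0.52 to 0.25, *P*-adj = 0.961), an interval that does not reach the LFC of −1.05 estimated for *myog*. Dividing the counts of *myog* by those of *myod1* within each library gave 2.06 to 2.84 in C, 1.80 to 2.46 in SM, then under heat 1.23 to 1.76 in TS and 0.676 to 1.53 in TS + SM. Every heated pool had fewer *myog* reads per *myod1* read than every unheated pool. These ratios were formed after the levels had been seen and were not tested.

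The determination factor *myf5* (ENSDARG00000007277) was low and had lower means under heat. Its C pools held 124, 98.2 and 87.7 normalized counts and its SM pools 107, 106 and 137, against 52.1, 47.4 and 86.6 in TS and 35.9, 50.3 and 115 in TS + SM. All TS pools lay below all C pools, as for 5.47% of genes. The highest TS pool, at 86.6, nearly met the lowest C pool, at 87.7, and TS + SM pool 3 lay above 2 of the C pools. The averaged heat LFC was −0.77 (SE 0.28, *P*-adj = 0.358), not called.

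The fourth bHLH factor, *myf6* (ENSDARG00000029830), the neighbor of *myf5* on chromosome 4 of the RefSeq annotation of assembly GRCz12tu with 0 genes between them, was close to the limit of detection in most pools. It had 7.09, 7.78 and 36.4 normalized counts in C, 12.4, 15.5 and 4.41 in SM, beside 5.68, 10.8 and 61.2 in TS and 0, 7.74 and 20.6 in TS + SM. The pool with 0 counts was the deepest library, in which 3 counts come to 1.79 normalized counts. Most of the *myf6* signal of C and of TS sat in pool 3 of each. Its averaged heat LFC of 0.18 (SE 0.85, 95% interval −1.67 to 2.03) excluded neither a large rise nor a large fall, and it turned to −0.65 without TS pool 3. The 4 bHLH factors therefore gave 1 called difference, that of *myog*.

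The 2 identifiers that share the symbol MEF2C, of which *mef2ca* is 1, encode factors that promote thick filament assembly and differentiation in skeletal and cardiac muscle. ENSDARG00000009418 had 923, 745 and 511 normalized counts in C, 608, 632 and 767 in SM, against 576, 680 and 574 in TS and 715, 475 and 744 in TS + SM. ENSDARG00000029764 held 2571 to 5818 in C, 3556 to 4351 in SM, then under heat 2132 to 3990 in TS and 2825 to 4486 in TS + SM. The treatments overlapped for both. The averaged heat LFCs were −0.15 (SE 0.16, *P*-adj = 0.939) and −0.25 (SE 0.22, *P*-adj = 0.893). Of the other MEF2 genes listed, only *mef2b* was matched, at 4.05 to 20.6 normalized counts in all and with an LFC of 0.59 (SE 0.34, *P*-adj = 0.712).

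**Figure D2:**
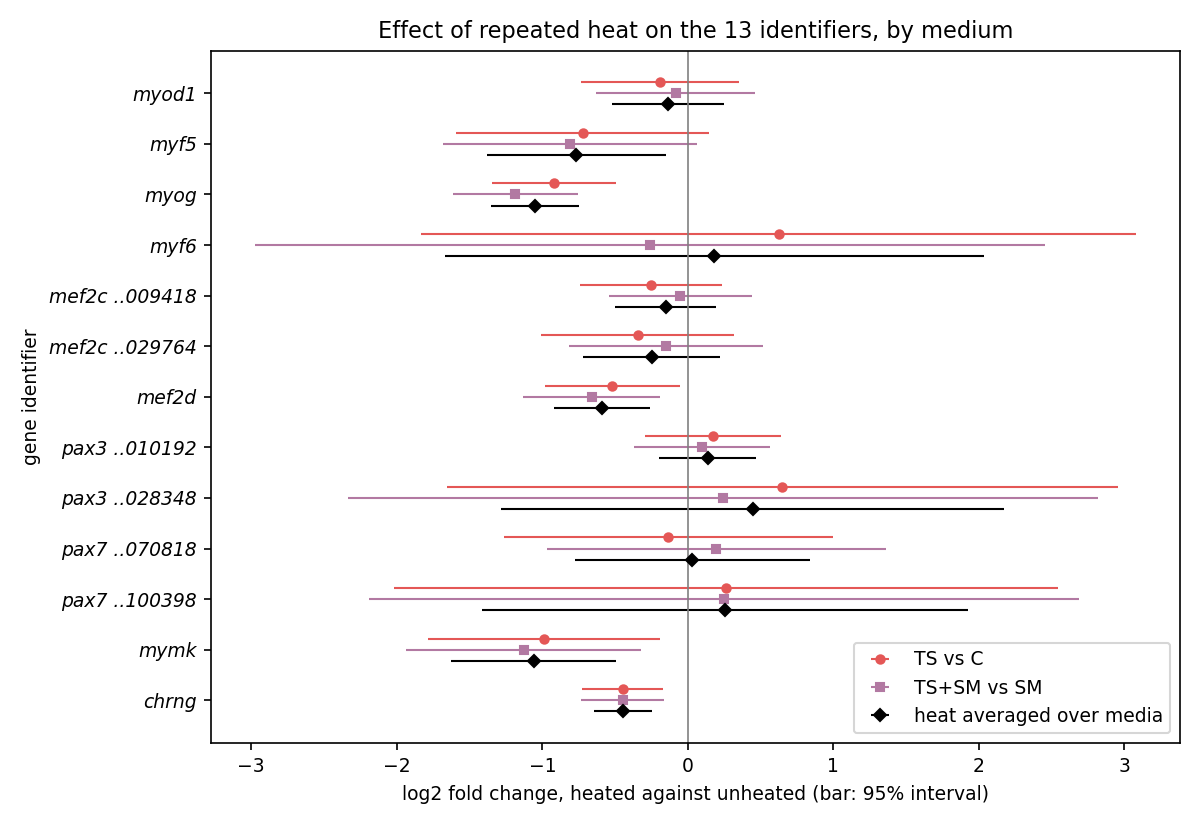
Log2 fold change of heated against unheated embryos (horizontal axis) for the 13 identifiers (vertical axis, where the last 6 digits tell paralogs with a shared symbol apart), with 95% intervals. Circles are TS vs. C, squares TS + SM vs. SM and diamonds the average over both media. The averaged values run from −1.06 for *mymk* to 0.45 for the low-count identifier of the PAX3 pair, whose interval crosses 0.

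Paired box factors mark dorsal neural tube, neural crest and the external cells of the somite from which later muscle progenitors come, so that their RNA in a whole embryo is not all of the muscle lineage. The abundant identifier of the PAX3 pair, ENSDARG00000010192, had 383, 272 and 275 normalized counts in C, 337, 338 and 365 in SM, beside 413, 390 and 248 in TS and 408, 403 and 302 in TS + SM. These ranges overlapped, with an averaged heat LFC of 0.14 (SE 0.15, *P*-adj = 0.948). The other PAX3 identifier, ENSDARG00000028348, was at 0.947 to 25.4 normalized counts over the 12 pools, and its LFC of 0.45 (SE 0.79) left the direction undetermined.

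The pools differed more than the treatments for the PAX7 pair. ENSDARG00000070818 had 62.8, 127 and 212 normalized counts in C, 51.2, 101 and 55.1 in SM, against 73.0, 84.0 and 208 in TS and 44.9, 83.9 and 112 in TS + SM. For ENSDARG00000100398 the values were 15.2, 20.4 and 150 in C, 4.66, 44.0 and 19.8 in SM, then under heat 24.6, 20.3 and 175 in TS and 8.97, 24.5 and 50.9 in TS + SM. Pool 3 was the highest of its treatment for both in C, TS and TS + SM, as it was for *myf6* and for the low PAX3 identifier, while in SM it was so only for the low PAX3 identifier. The averaged heat LFCs of the PAX7 pair were 0.03 (SE 0.37) and 0.25 (SE 0.77). Without TS pool 3 they were −0.27 and −0.58.

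**Figure D3:**
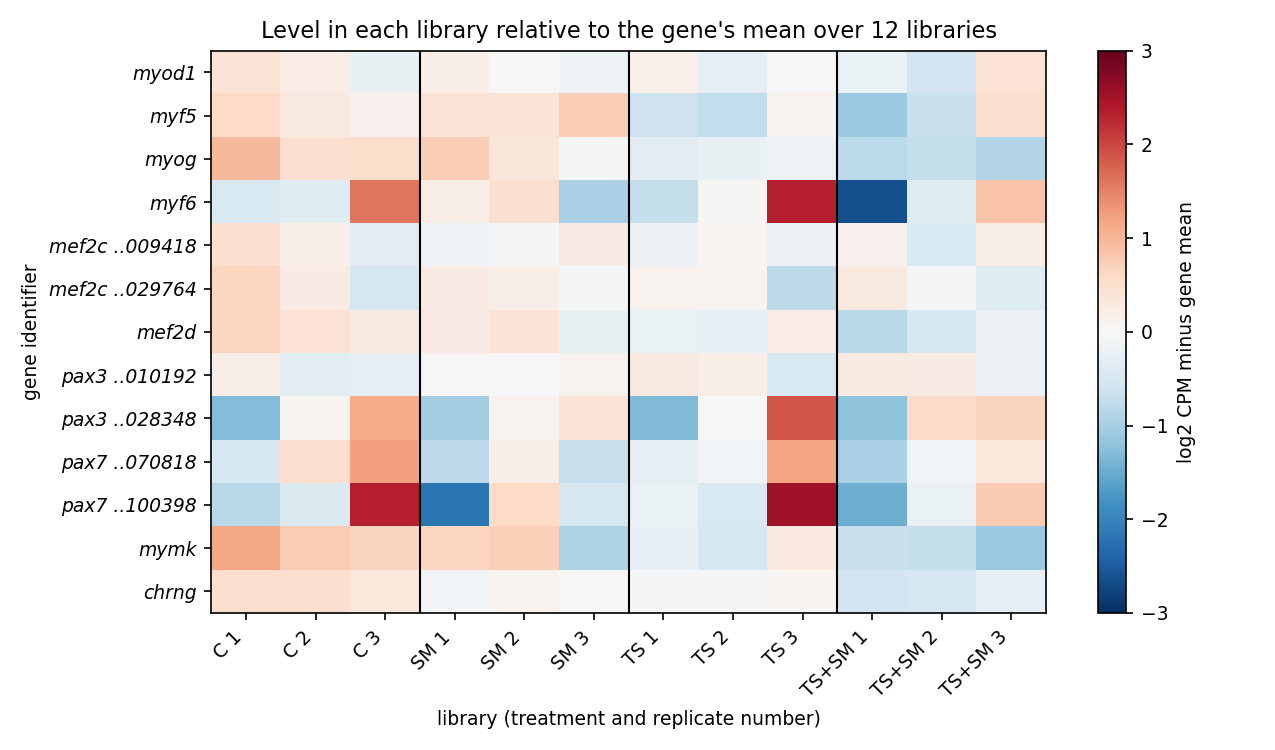
Log2 CPM of the 13 identifiers (rows) in each of the 12 libraries (columns, by treatment and replicate number) minus the mean of that identifier over all libraries, from blue (lower) to red (higher). *myog* is lower on the heated side of the map, and *myf6* and the PAX7 pair are highest in C 3 and TS 3.

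The pattern of each member over the 12 libraries was set beside those of the others by the root mean square difference of log2 CPM after centering. *mef2d* and *chrng* were nearest to each other, at 0.19. *mef2d* was also the member nearest to *myog*, at 0.31, and *myog* that nearest to *mymk*, at 0.35. *myod1* was nearest to the MEF2C identifier ENSDARG00000009418, at 0.24, and *myf6* to the PAX7 identifier ENSDARG00000070818, at 0.75. Around their own means, *myod1* and that MEF2C identifier had a root mean square of only 0.29 and 0.26, against 0.60 for *myog* and 1.22 for *myf6*. Their difference of 0.24 therefore says little of a shared pattern. These figures describe 12 libraries that share their treatments, and they carry no test.

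Among all genes tested, the pattern of *myog* was most closely followed by *si:dkeyp-19e1.3*, at 0.17 over 12 libraries, then by the genes listed as CRIP2 (0.26) and LMO2 (0.27). *si:dkeyp-19e1.3* had a mean of 256 ± 28.8 normalized counts in C, 228 ± 47.5 in SM, beside 144 ± 6.56 in TS and 116 ± 11.2 in TS + SM (SD, n = 3 each). For *chrng* the nearest were TXLNB (0.14), FST (0.17) and *nfe2l1b* (0.17). TXLNB held 2869 ± 490 normalized counts in C and 1790 ± 321 in TS + SM (SD, n = 3 each). FST encodes follistatin, a secreted antagonist of activins and myostatin, and had 425 ± 88.7 in C and 262 ± 40.0 in TS + SM (SD, n = 3 each). For heat averaged over media, edgeR called *si:dkeyp-19e1.3* lower (*P*-adj = 0.00868). It did not call CRIP2 (0.0838), LMO2 (0.179), TXLNB (0.229), FST (0.443) or *nfe2l1b* (0.118), nor did it in TS + SM vs. C.

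Of 10 listed genes of the acetylcholine receptor and the neuromuscular synapse, edgeR called 0 for heat and DESeq2 called 0. An unadjusted *P* under 0.05 was found for 2 of them, against 9.36% of all genes. Their median LFC was 0.10, with 4 of the 10 below 0 (50.5% of all genes). The alpha, delta and epsilon subunits were looked at after the values of *chrng* had been seen. Under heat *chrna1* had an LFC of 0.13 (SE 0.19), *chrnd* of −0.07 (SE 0.17) and *chrne* of 0.11 (SE 0.18), none of them called, and no test compared them with *chrng*. The LFCs of *chrnd* and *chrne* changed sign when single libraries were left out. Means of *chrna1* were 700 ± 111 normalized counts in C, 480 ± 111 in SM, against 729 ± 228 in TS and 549 ± 156 in TS + SM (SD, n = 3 each). Both unheated and heated embryos thus had a lower mean of *chrna1* with metabolites. For SM averaged over temperatures its LFC was −0.48 (unadjusted *P* = 0.0243, *P*-adj = 0.802), beside −0.44 for *chrnd* and −0.40 for *chrne*. There 0 of the 10 genes were called by edgeR or DESeq2, with 3 at an unadjusted *P* under 0.05 (3.82% of all genes). The synapse genes with the smallest *P* for heat were *ache*, which encodes the acetylcholine-degrading enzyme, with an LFC of 0.59 (SE 0.17, *P*-adj = 0.201), and *dok7a*, an activator of the kinase MuSK, with −0.73 (SE 0.22, *P*-adj = 0.218).

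Factors that act upstream of the myogenic bHLH genes were not called by edgeR. Of 16 upstream and partner factors, 0 were called for heat, 5 had an unadjusted *P* under 0.05 (9.36% of all genes) and DESeq2 called 1, *eya1*. Among the 16, 9 had an LFC below 0 (50.5% of all genes) and the median LFC was −0.09. The smallest *P* belonged to *eya1*, a transcriptional cofactor of muscle precursors, with an edgeR LFC of −0.33 (SE 0.09, *P*-adj = 0.142). Its heated pools all lay below the unheated ones, as for 0.557% of all genes. *tcf15*, a bHLH factor of the somite epithelium, had an LFC of −0.59 (SE 0.17, *P*-adj = 0.204). Of 10 tested inhibitors of the bHLH factors, such as Id, Twist and Hey proteins, 0 were called by edgeR or DESeq2, with a median LFC of −0.02. An unadjusted *P* under 0.05 was found for 1 of them, against 9.36% of all genes. Among these, *hey1* had an LFC of −0.43 (SE 0.19, *P*-adj = 0.498) and *twist1a* of −0.24 (SE 0.13, *P*-adj = 0.679).

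Genes of the differentiated muscle fiber had LFCs of the opposite sign to those of *myog* and *chrng*. Of 24 muscle differentiation genes listed, 13 were matched and tested. All 13 had an LFC above 0 for heat, with a median of 0.80, whereas 50.5% of all genes had one below 0. Called higher were 3 of the 13, against 0.701% of all genes. *pvalb1*, a calcium buffer of fast muscle, had an LFC of 1.60 (SE 0.17, *P*-adj = 0.00122), from 3453 to 5312 normalized counts in C to 10361 to 14424 in TS. The other called genes were *cavin4a*, a coat protein of muscle caveolae, with 1.22 (SE 0.18, *P*-adj = 0.00769), and *myhz2*, a fast myosin heavy chain, with 1.01 (SE 0.18, *P*-adj = 0.0256). The call of *myhz2* held in 4 of 12 fits that left out 1 library, with a *P*-adj of up to 0.0844, and 2 muscle genes instead of 3 were called in 8 of these fits. The sums over the 13 genes ran from 189800 to 249637 normalized counts in C, 161897 to 184610 in SM, then under heat 262544 to 441860 in TS and 219156 to 362156 in TS + SM. The TS pools, where *myog* was lower, thus had higher sums than all C pools, and the TS + SM pools higher sums than all SM pools. Among single genes, 5.81% and 5.67% were higher without overlap in these comparisons, in that order. Sums of TS + SM and C overlapped. A few abundant genes weigh most in these sums, such as *actc1b* and *atp2a1*, with means of 53112 and 43191 normalized counts in C.

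Many, but not all, listed markers of the tailbud and presomitic mesoderm, the source of the youngest somites, were lower in the same heated pools. Of 16 tested, 9 fell with heat, against 0.15% of all genes, 0 rose and the median LFC was −1.70. The LFC was below 0 for 14 (50.5% of all genes) and above 0 for 2. Means of *tbxta* were 735 ± 239 in C and 774 ± 129 in TS, 781 ± 117 in SM and 809 ± 63.5 in TS + SM. Those of *dld* were 2340 ± 324 and 2635 ± 571, then 1920 ± 473 and 2332 ± 451 (SD, n = 3 each). The largest falls were those of *mespab* with −3.89 (SE 0.46, *P*-adj = 0.00214), *mespbb* with −2.49 (SE 0.44, *P*-adj = 0.0226), *ripply2* with −2.48 (SE 0.40, *P*-adj = 0.0123) and *her1* with −2.36 (SE 0.22, *P*-adj = 0.000534). The call of *mespbb* held in 5 of 12 fits without 1 library (*P*-adj up to 0.0802) and was lost with thinned libraries (0.0762). Without C pool 1, SM pool 1, TS pool 1 or TS + SM pool 2, 5 of the 16 markers were called. The Mesp and Ripply proteins set somite boundaries and *her1* is part of the segmentation clock. *mespab* had 20.5 to 64.9 normalized counts in C, 39.7 to 55.9 in SM, beside 1.37 to 5.42 in TS and 1.21 to 4.19 in TS + SM. Its heated pools were thus near the limit of detection and the size of its fall rests on few counts. The same holds for *mespbb*, with 5.83 to 19.3 in C, 14.3 to 34.1 in SM, 2.71 to 3.44 in TS and 1.29 to 4.19 in TS + SM. *ripply2* reached down to 3.44 in TS and 3.64 in TS + SM. The summed level of the 17 matched markers, which a few abundant genes set, overlapped between treatments: 6256 to 6993 in C, 6070 to 8088 in SM, against 6210 to 6281 in TS and 5726 to 6412 in TS + SM. Both lists were chosen with earlier results of these data known. The part of these markers in the levels of *myog* and *chrng* was not tested.

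**Figure D4:**
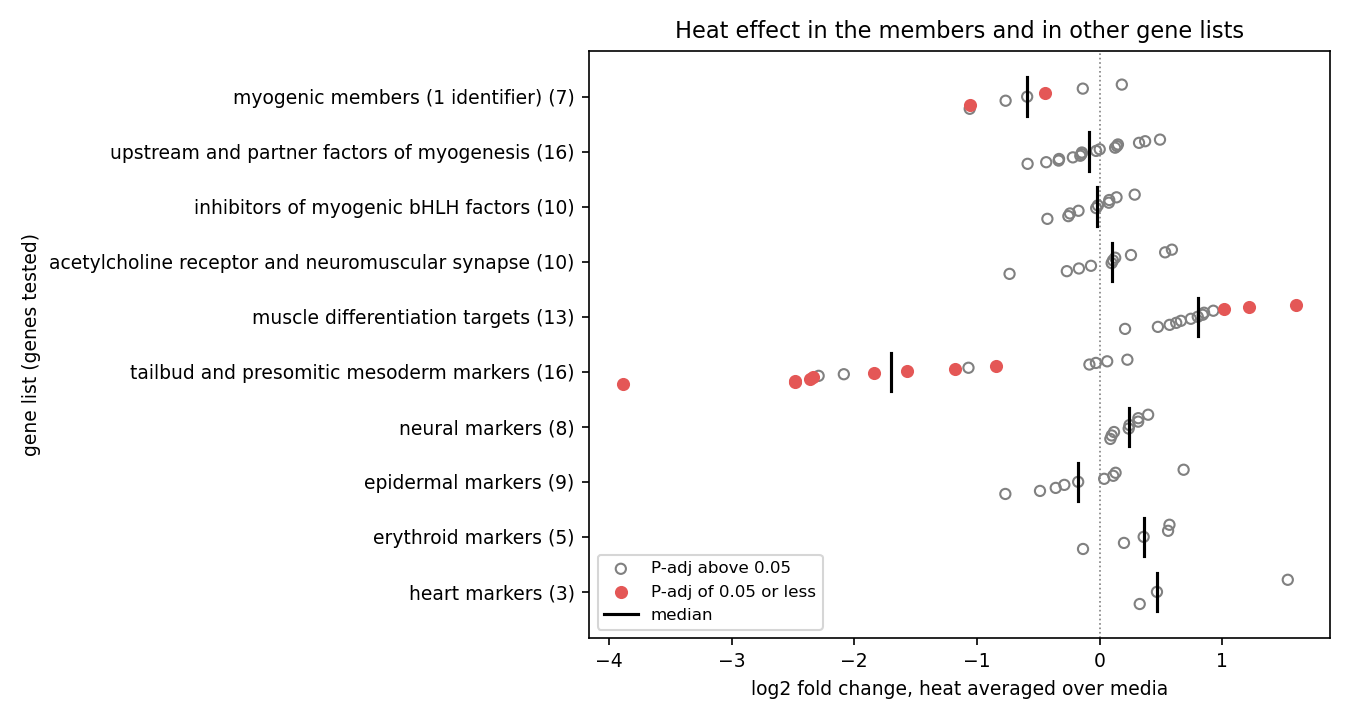
Log2 fold change for heat averaged over media (horizontal axis) of the 7 members matched to 1 identifier and of the genes tested in 9 other lists (rows, with the number of genes). Filled points have a *P*-adj of 0.05 or less and black bars are medians. The median is −0.59 for these 7 members, 0.80 for muscle differentiation genes and −1.70 for tailbud and presomitic mesoderm markers.

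Other tissues were followed through their markers. For heat, edgeR called 0 of 8 neural, 9 epidermal, 5 erythroid and 3 heart markers, with median LFCs of 0.24, −0.17, 0.36 and 0.47. The values with the smallest *P* in each were an LFC of 0.40 for *elavl4*, −0.77 for *krt17*, 0.57 for *hbae1.1* and 1.53 for *nppa*, the last at a *P*-adj of 0.0903. At an unadjusted *P* under 0.05 there were 1, 4, 1 and 3 in the same order (9.36% of all genes), and DESeq2 called *krt17* and *nppa*. For SM, the sums of the 9 epidermal markers ran from 441560 to 610472 normalized counts in C and from 653177 to 903102 in SM without overlap. Among single genes, 4.32% were higher in SM than in C without overlap. In heated embryos they were 441080 to 668525 in TS and 497505 to 1005830 in TS + SM. All 9 epidermal LFCs for SM averaged over temperatures were above 0, with a median of 0.45, whereas 51% of all genes had one below 0. Of the 9 epidermal genes 0 were called by edgeR or DESeq2 and 3 had an unadjusted *P* under 0.05 (3.82% of all genes). In the same comparison 6 of the 7 members, *chrng* and *myog* among them, had values below 0 (51% of all genes). The part of the epidermal share in the lower levels of *chrng* and *myog* with metabolites was not tested.

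The combination and the metabolite comparisons complete the design. In TS + SM vs. C, 2 of 7 members were called, *myog* and *chrng*, against 0.171% of all genes, and the 7 LFCs were all below 0 (53.9% of all genes) with a median of −0.94. In TS vs. C, 0 of 7 were called, against 0.0963%, although 5 of the 7 had all 3 TS pools below all 3 C pools (5.47% of genes) and 4 an unadjusted *P* under 0.05 (4.45%). With DESeq2, *myog* was called in TS vs. C (*P*-adj = 0.00950). In TS + SM vs. SM, 0 were called, against 0.107%, 4 had an unadjusted *P* under 0.05 (6.01%) and DESeq2 called 1, *myog*. For SM averaged over temperatures, edgeR called 0 of 7, as it called 0 of all genes (0%), while 4 of 7 had an unadjusted *P* under 0.05 against 3.82%, and DESeq2 called 0 of 7 and 1 gene in all. *myog* had an LFC of −0.44 there (SE 0.14, *P*-adj = 0.802), *mef2d* of −0.35 and *mymk* of −0.64. In TS + SM vs. TS, *myog* had an LFC of −0.57 (SE 0.20, *P*-adj = 0.996) with 3 of 3 pools lower, as for 2.69% of all genes. There edgeR and DESeq2 called 0 of 7 members and 0 of all genes, with 2 members and 271 genes (1.45%) at an unadjusted *P* under 0.05. For the interaction edgeR called 0 members and 0 genes, with 0 members and 171 genes (0.915%) at an unadjusted *P* under 0.05. DESeq2 called 2 genes, 0 of them members. These comparisons share libraries, C or TS + SM among them, and are not independent of each other.

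The calls of TS + SM vs. C depended on single libraries and on the processing. With only the libraries compared in the fit, neither *myog* (*P*-adj = 0.0709) nor *chrng* (0.229) was called, and *myog* was not called with the unstranded column (LFC −1.82, *P*-adj = 0.147). *myog* was not called without C pool 2 (*P*-adj = 0.0580), TS + SM pool 1 (0.0717) or TS + SM pool 2 (0.0691). *chrng* was not called without C pool 1 (0.145), C pool 2 (0.156), TS + SM pool 1 (0.0964) or TS + SM pool 2 (0.123). For heat averaged over media, *myog* was called in each of the 12 fits that left out 1 library, with an LFC between −1.14 and −0.94. The averaged heat fit with DESeq2 called 4 of the 7 members, *myog*, *chrng*, *mef2d* and *mymk*, among 449 genes, against 159 genes with edgeR.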

How the data were processed

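Per the paper's methods, the authors sequenced polyA RNA in strand-specific paired libraries. They trimmed read pairs with fastp 0.23.1, aligned them to GRCz11 with STAR 2.6.1 and deposited the counts per gene that STAR gave, without normalization. Each file has 4 summary lines, 32520 genes, 1 unstranded and 2 stranded count columns. The second stranded column was used, and the opposite strand held 2.61% to 3.45% of stranded counts. Of all reads, 9.42% to 12.2% fell on no gene, 4.51% to 10.4% mapped to several places and 0.799% to 1.03% were ambiguous, and these stayed out. Symbols came from a name table covering 29207 identifiers.

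Tests were run with edgeR 4.0.16 in R 4.3.3 (TMM, filterByExpr by group leaving 18688 genes, robust quasi-likelihood with statmod 1.5.0, two-sided) on 12 libraries with treatment as 1 factor of 4 levels and 8 contrasts. They were also run on simulated counts that had the same spread for all genes and no replicate effect. Such counts do not check the tests under the spread between these pools. Log2 CPM used a prior count of 2. Treatment was read from the sample labels. Limits of detection cover counting error only.

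The members and lists were chosen with earlier results of these data known. Named from a list were up to 4 genes with the largest change among those called for heat or SM, averaged, or else up to 2 with the smallest *P*. *chrna1*, *chrnd*, *chrne*, *tbxta* and *dld* were added after their values were seen. The genes most like *myog* and *chrng* were the 3 with the smallest root mean square difference of centered log2 CPM. Alternatives were DESeq2 1.42.0 (Cook filter off), its size factors in edgeR, no filter, only the libraries compared, a block for the replicate number, the unstranded counts and each library left out. Thinning to the smallest library was chosen after seeing the data. Same-numbered libraries deviated together in TS and C (correlations of 0.294 to 0.786) and in TS + SM and C (0.106 to 0.619) and were taken as paired by this check, not by the labels. They were not for the other pairs of treatments, though in TS and TS + SM the correlations were 0.0608 to 0.556. The main fit held no block, so its tests left any pairing out, and the block was an alternative only.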

Additional observations from a re-analysis of the deposited data

How the results depend on the processing

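The averaged heat effect on *myog* kept its direction and its call in 17 of 18 alternatives (LFC −1.14 to −0.94) and lost the call with the unstranded column. That on *chrng* kept its direction in all 18 (−0.49 to −0.41) and its call in 4. Calls among the 7 members moved as follows, and the cause was not tested. For heat averaged over media, 2 members became 4 with DESeq2 and 1 each with no filter, the replicate block, the unstranded column and thinned libraries, and 1 to 2 when single libraries were left out. For TS + SM vs. C, 2 became 4 with DESeq2, 0 with only the libraries compared and 1 with the unstranded column, and 0 to 2 with libraries left out. For TS + SM vs. SM, 0 became 1 with DESeq2, no filter, the replicate block and thinning, and for TS vs. C 0 became 1 with DESeq2. The replicate block changed no other call of a member. Over all genes, edgeR and DESeq2 called 18 and 113 genes in TS vs. C, 32 and 171 in TS + SM vs. C, 20 and 143 in TS + SM vs. SM, and 159 and 449 for heat. With 1 library left out, edgeR called 7 to 17, 5 to 32, 2 to 9 and 72 to 172 in the same order, lowest without C replicate 2 in TS vs. C, TS + SM vs. C and heat, and in TS + SM vs. SM without SM replicate 2, SM replicate 3 or TS + SM replicate 1, so the shares of all genes called move with them. Fits of only the libraries compared called 0, 2 and 2 in the first 3 of these, and with the block 36 in TS + SM vs. SM. Muscle differentiation genes called higher numbered 3, or 9 with DESeq2, and tailbud markers called lower 9, or 5 to 8 with libraries left out. Estimates near 0 changed sign. The *chrng* interaction was −0.0065 with DESeq2, −0.0051 with its size factors, −0.0060 with the unstranded column, −0.0043 with no filter, −0.026 thinned and −0.083 to 0.086 with libraries left out. The heat LFC of *myf6* was −0.29 with the block and −0.65 to 0.77 with libraries left out, and that of ENSDARG00000070818 was −0.0012 and −0.27 to 0.28. With libraries left out, ENSDARG00000100398 gave −0.58 to 1.15, ENSDARG00000028348 −0.47 to 0.94, *chrnd* −0.21 to 0.018 and *chrne* −0.016 to 0.19. Low counts limit *myf6* and ENSDARG00000028348, with SEs of 0.85 and 0.79.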
